A study of Mus musculus with 5 samples.

Results

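The ADAM, ADAMTS and ADAMTS-like genes of mouse were followed in a melanoma cell line with and without a constitutively active MNK kinase. Members were taken by symbol: Adam, Adamts or Adamtsl followed by a number. Of the 46959 gene symbols in the deposited tables, 57 matched, made up of 33 ADAM, 19 ADAMTS and 5 ADAMTS-like genes. The cells were D4m.3a (Dartmouth murine mutant malignant melanoma-3A), a C57BL/6 mouse line used between passages 7 and 12. The caMNK group (3 libraries, labelled as replicates 1, 2 and 3) carries constitutively active MNK, named MNK1 in the extraction protocol. The pBABE group (2 libraries) carries the genotype label control, and the series text gives it as the reference. MNK1 is the Mknk1 product, a kinase of the cap-binding translation factor eIF4E, and pBABE is a retroviral vector. D4m.3a came from a mouse melanoma with mutant Braf, which both groups share.

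Each group is a single line, so the kinase and any other way in which the lines differ cannot be told apart. The labels do not say whether either line is a clone or a pool, or how the cultures of the biological replicates were kept apart. The p-values therefore measure the spread between these libraries. The libraries are of bulk RNA, in which fewer cells of a kind and less RNA per cell cannot be told apart.

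ADAMs are membrane-anchored proteins with a metalloproteinase and a disintegrin domain. Those with an intact catalytic site cut the outer part of other membrane proteins off the cell surface, a step called shedding, which frees EGF receptor ligands and starts Notch signalling. ADAMTS proteins are the secreted relatives, which bear thrombospondin repeats and cut matrix proteins such as versican and the propeptides of collagen. ADAMTS-like proteins have the repeats without the protease domain and are found in the matrix, several of them with fibrillin. In melanoma, shedding and matrix turnover are studied for their part in growth signalling, adhesion and invasion.

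The 5 libraries held between 27827199 and 48794336 counts, and 22686 to 24034 genes had at least 1 count. Levels are given as CPM, counts scaled to 1e+06 counts of the TMM-scaled library total. Mknk1 measured 167, 155 and 168 CPM in caMNK cells, against 15.2 and 16.7 CPM in pBABE cells, 10.2-fold higher, with a log2 fold change of 3.36 ± 0.104 (SE) and an edgeR adjusted p of 4.81e-06. Of 13 pigment cell markers, 3 passed the filter on low counts and Tyrp1, Dct and Slc45a2 had 0 counts in every library, so the melanoma label is not borne out by pigment genes. The summed level of the 13 markers, nearly all of it Gpnmb, was 136 to 220 CPM in caMNK cells and 185 to 192 CPM in pBABE cells. Markers of macrophages summed to 13.3 to 18.2 CPM in caMNK cells and 13.4 to 15.0 CPM in pBABE cells, and 4 of 5 markers of T and B cells were at 0. The 4 endothelial markers summed to 3.54 to 3.62 CPM in caMNK cells, against 5.47 to 9.48 CPM in pBABE cells. Of 3 tested, 2 had estimates above 0 and Cdh5 fell. The 4 neuron markers, nearly all Tubb3, summed to 34.9 to 40.6 CPM in caMNK cells, against 45.8 to 46.2 CPM in pBABE cells. Of 2 tested, 0 rose and 0 fell. The 7 mesenchymal markers summed to 658 to 926 CPM in caMNK cells and 913 to 975 CPM in pBABE cells, and of 5 tested, 4 had estimates below 0 and Col1a1 fell. The 13 mitochondrial mRNAs summed to 18762 to 21654 CPM in caMNK cells, against 12284 to 13526 CPM in pBABE cells, and 11 nuclear non-coding RNAs to 750 to 1044 CPM in caMNK cells, against 484 to 499 CPM in pBABE cells. The part of these markers and RNA classes in the results was not tested.

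Of the 57 members, 28 passed the filter and were tested: 13 of 33 ADAM, 12 of 19 ADAMTS and 3 of 5 ADAMTS-like genes. The filter asks for about 0.275 CPM, which is 10 counts in the median library, in at least 2 libraries. Adam32 and Adam4 passed it through their caMNK libraries alone. A mean of at least 1 CPM was reached by 26 members, at least 10 CPM by 13, and at least 100 CPM by Adam10, Adam19, Adam9 and Adamts7. Adam10, Adam19 and Adam9 together held 48.7% of the summed level of all members, and the 10 most abundant members held 91.3%. The summed level of all 57 members was 1175, 1182 and 1128 CPM in caMNK cells, against 1338 and 1355 CPM in pBABE cells. All 3 caMNK libraries lay below both pBABE libraries.

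**Figure D1:**
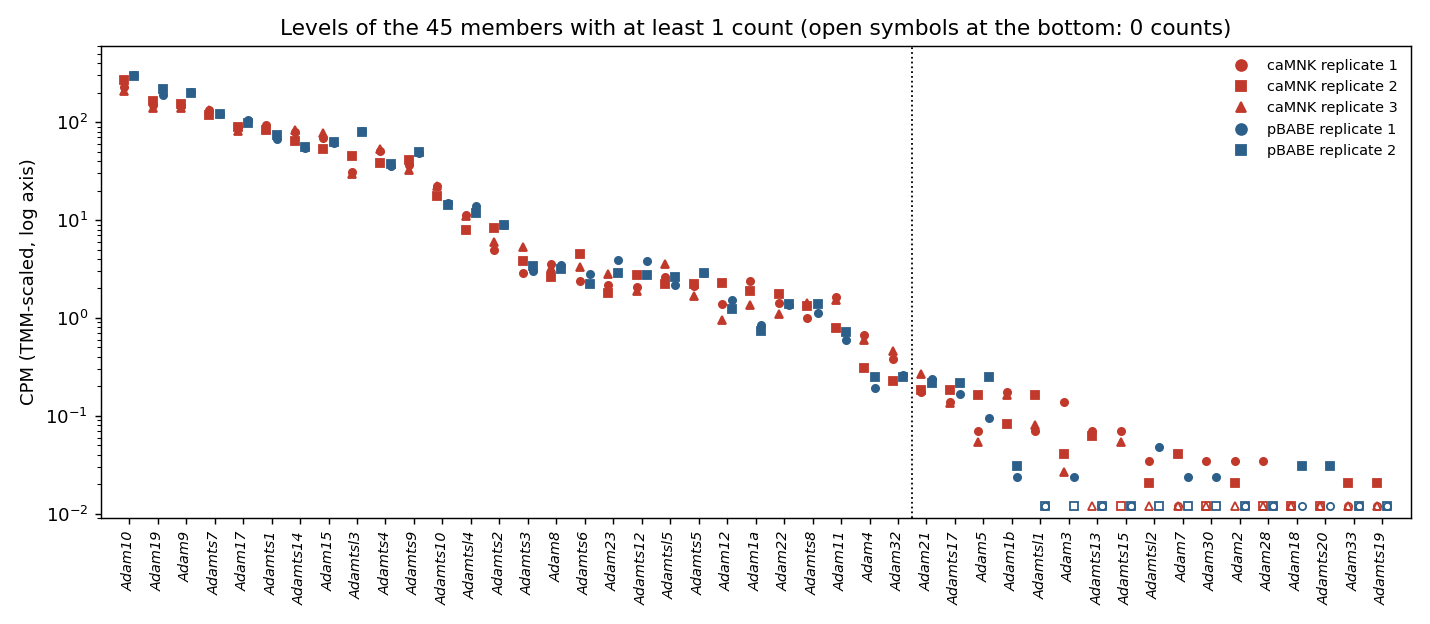
Level of each of the 45 members with at least 1 count, in CPM on a log axis, with caMNK libraries in red left of pBABE libraries in blue; open symbols at the bottom stand for 0 counts, and members right of the dotted line were not tested. The levels run from above 200 CPM for Adam10 to single reads, and the 28 tested members all stand left of the line.

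The counts cover whole gene spans with introns, so CPM favours long genes. Per kilobase of deposited gene length, the 28 tested members ranged between 0.00280 CPM for Adam32 and 8.64 CPM for Adamts1, with a median of 0.241 CPM. On that scale Adam15 with 5.63 and Adamts4 with 4.20 CPM per kb came next, ahead of Adamts7 with 2.79, Adam10 with 2.58, Adam9 with 2.51 and Adam19 with 1.89 CPM per kb. Per kilobase of summed exons the order turned: Adam10 led with 53.1 CPM per kb, before Adam9 with 41.0, Adam19 with 24.2, Adamts7 with 19.97 and Adamts1 with 15.1 CPM per kb, while Adam15 had 10.5 and Adamts4 8.92 CPM per kb. How these genes rank thus depends on which length is used.

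The remaining 29 members were not tested. Adamtsl1, an ADAMTS-like matrix protein, had 2, 8 and 3 counts in caMNK libraries and 0 in both pBABE libraries. Adam1b, a testis ADAM, had 5, 4 and 6 counts in caMNK libraries and 1 in each pBABE library, and it lies inside Tmem116. Adamts17, whose human counterpart is mutated in a form of Weill-Marchesani syndrome, had 4, 9 and 5 counts in caMNK libraries and 7 in each pBABE library. Adam5 had 2, 8 and 2 counts in caMNK libraries and 4 and 8 in pBABE libraries, and Adam21 had 5, 9 and 10 counts in caMNK libraries and 10 and 7 in pBABE libraries. These 5 were at the edge of detection, and no difference was read from them. A further 12 members had 1 to 9 counts in all libraries together: Adamts13, the von Willebrand factor protease, Adamtsl2, Adam33, Adam30, Adam18, Adam3, Adam2, Adam7, Adam28, Adamts15, Adamts20 and Adamts19. The other 12 had 0 counts in every library, which over 188708427 counts allows a level of up to 0.0159 CPM. They were Adam24, Adam25, Adam20, Adam39, Adam26b, Adam26a, Adam34, Adam29, Adam6a and Adam6b, most of them testis genes, with Adamts16 and Adamts18. Floors of this kind cover counting error only.

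Between caMNK and pBABE cells, 6 of the 28 tested members passed the threshold, an adjusted p under 0.05 over all 17026 genes tested with edgeR's quasi-likelihood test. Adam1a, Adamts14 and Adamts10 rose, and Adamtsl3, Adam9 and Adam19 fell. Unless another fit is named, passing is meant for all 5 libraries, with the filter and group as the only term. The 6 are 21.4% of the tested members, against 7.94% of all genes tested. Of all genes, 4.42% rose and 3.52% fell. The median log2 fold change was 0.08 over the 28 members and -0.0021 over all genes, with 16 members above 0 and 12 below; 49.6% of all genes lay above 0. Without Adam4 and Adam32, which passed the filter through caMNK alone, the median of the members was 0.04. The groups did not overlap for 18 members (64.3%), 7 of them higher and 11 lower in caMNK cells. The share over all genes was 44.9%, with 22.3% higher and 22.6% lower. At an unadjusted p under 0.05 there were 17 members, 60.7% of those tested, against 25.9% of all genes. Adam4, which the filter kept through its caMNK libraries alone, is among the 7 higher and among these 17.

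**Figure D2:**
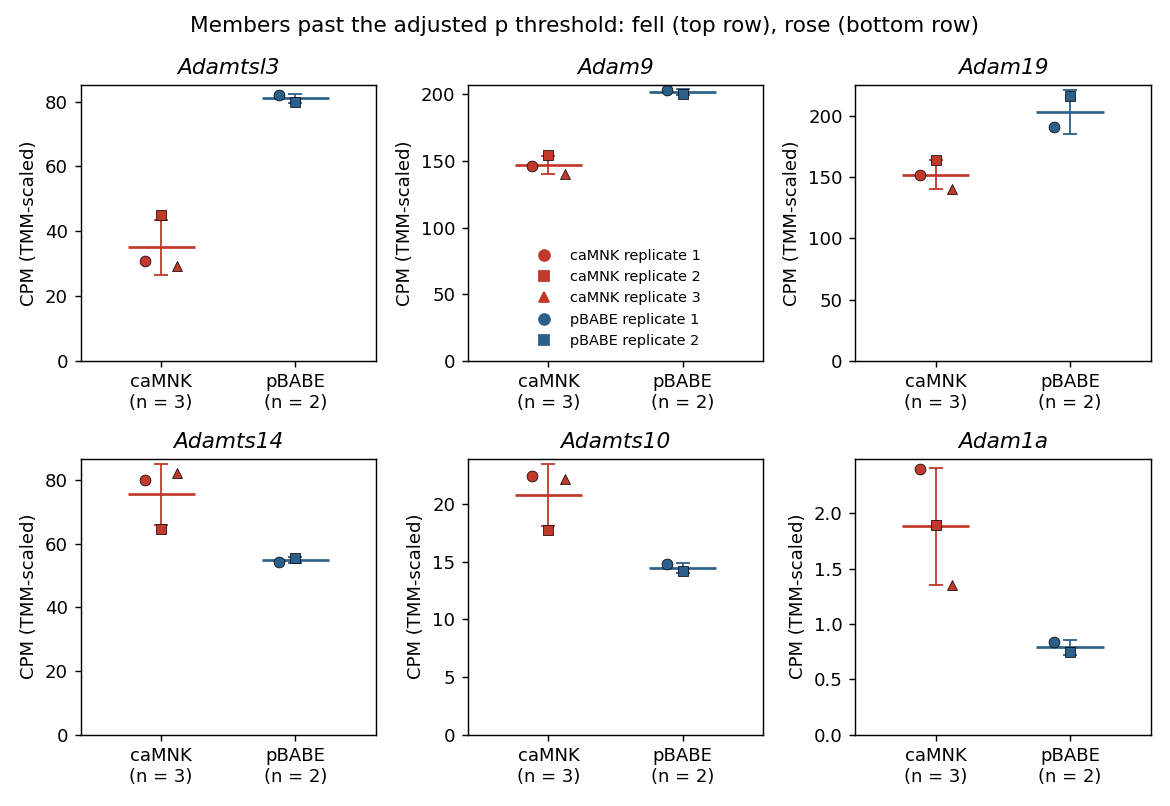
CPM of the 6 members that passed the threshold in each library, caMNK (n = 3) left of pBABE (n = 2), with the group mean as a horizontal line and ± 1 SD as bars. Adamtsl3, Adam9 and Adam19 lie lower in every caMNK library, and Adamts14, Adamts10 and Adam1a higher in every caMNK library, with caMNK replicate 2 the closest to pBABE for each but Adam1a.

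How many members passed depended on the libraries. Without caMNK replicate 2, 8 members rose and 9 fell, 60.7% of the members against 29.6% of all genes. The 8 were Adam1a, Adamts14 and Adamts10 with Adamts4, Adamts1, Adam15, Adam11 and Adam4, and the 9 were Adamtsl3, Adam9 and Adam19 with Adam10, Adam17, Adamts9, Adamts2, Adamts12 and Adamts5. Without caMNK replicate 1, 1 member passed (Adamtsl3), against 1.51% of all genes. Without caMNK replicate 3, Adam1a rose while Adamtsl3, Adam9 and Adam19 fell, 14.8% of the members tested there against 10.2% of all genes. Without pBABE replicate 1 or without pBABE replicate 2 no member passed in edgeR, against 0.132% and 0.310% of all genes, while 7 and 11 members had an unadjusted p under 0.05. The remaining pBABE library is then assumed to vary like the caMNK libraries.

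**Figure D3:**
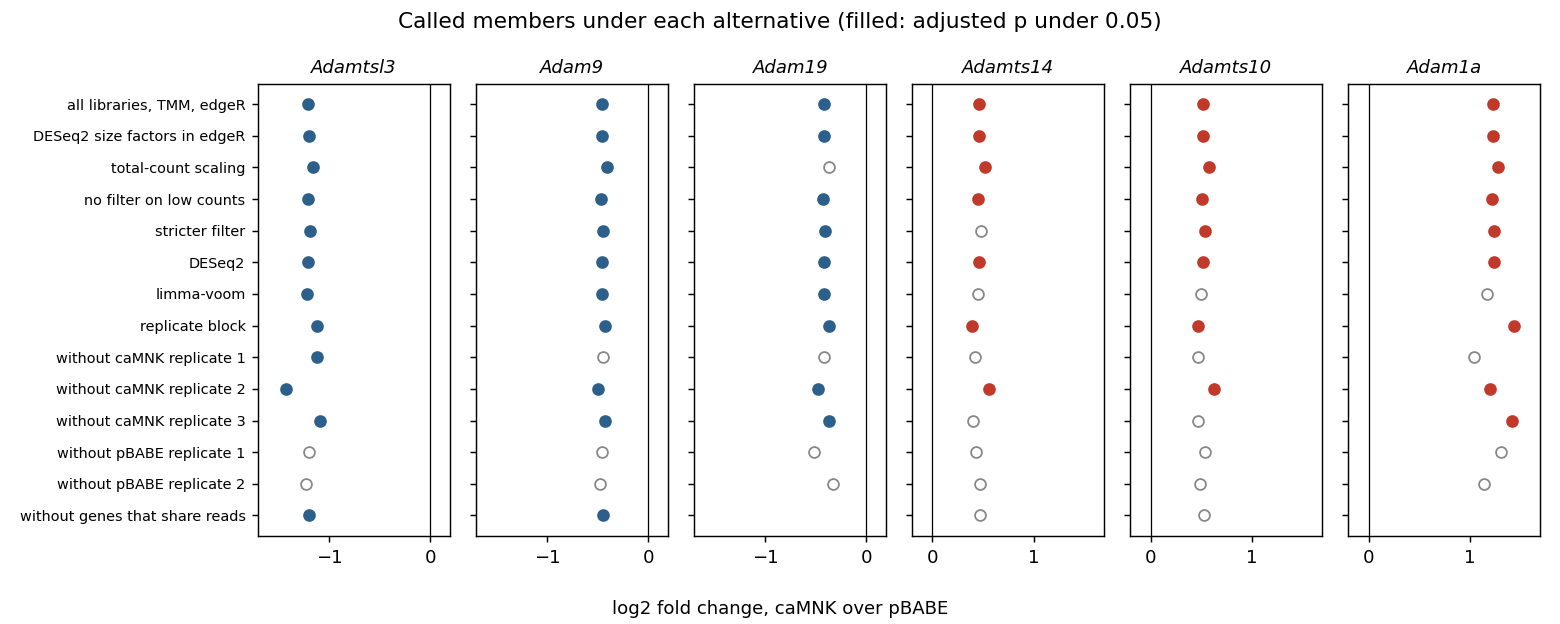
Log2 fold change of caMNK over pBABE for the 6 members in each fit, with filled points where the adjusted p is under 0.05 and open points where it is not; Adam19 and Adam1a have no value in the last row because they share reads with other genes. The points keep their side of 0 in every fit shown, and all are open in the 2 rows that leave out a pBABE library.

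Among the somatic sheddases, which cut other proteins from the cell surface, 2 of 7 tested members fell, Adam9 and Adam19, and none rose. Adam10 and Adam17, the best studied sheddases, lay lower in every caMNK library without passing the threshold. The summed level of the 9 sheddase genes was 689, 732 and 648 CPM in caMNK libraries and 869 and 879 CPM in pBABE libraries, with no overlap.

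Adam9 is a widely expressed sheddase that can release heparin-binding EGF. The deposited length matches a transcript on chromosome 8, bases 24949611 to 25016922 (mm10, GENCODE M21, minus strand). It measured 146, 154 and 140.4 CPM in caMNK cells, against 203 and 200.4 CPM in pBABE cells. No caMNK library reached the pBABE levels, and the pBABE libraries lay closer together than the caMNK libraries. Adam9 fell 1.37-fold (log2 fold change -0.46, SE 0.0834, edgeR adjusted p = 0.0158). Its adjusted p was 0.0962 without caMNK replicate 1, 0.205 with pBABE replicate 1 left out and 0.162 with pBABE replicate 2 left out. Its neighbour Adam32, a testis ADAM that lies 0.806 kb away, measured 0.383, 0.226 and 0.459 CPM in caMNK cells and 0.264 and 0.248 CPM in pBABE cells (log2 fold change 0.43, edgeR adjusted p = 0.592).

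Adam19, also called meltrin beta, can shed neuregulins and is needed for heart development in mice. It lies on chromosome 11, bases 46055992 to 46147343 (plus strand). Its level was 151, 164 and 140.5 CPM in caMNK cells, against 191 and 216 CPM in pBABE cells. Every caMNK library was below both pBABE libraries. Adam19 fell 1.34-fold (log2 fold change -0.42, SE 0.0999, edgeR adjusted p = 0.0406). It shares reads with Gm16033 and Gm16034, which had log2 fold changes of -0.24 and -0.45 (edgeR adjusted p = 0.178 and 0.0507). Both lie within Adam19 on the other strand and had 19883 and 5001 counts, against 32429 for Adam19. The adjusted p of Adam19 was 0.160 without caMNK replicate 1, 0.186 without pBABE replicate 1, 0.348 without pBABE replicate 2 and 0.0514 with total-count scaling. Without pBABE replicate 2 the log2 fold change was -0.33, and without pBABE replicate 1 it was -0.52.

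The promoter of Adam19 nearest to its annotated start is shown because Adam19 is the sheddase that fell for which a RefSeq promoter was at hand. It covers chr11:46055734-46056033 (GRCm38.p6, plus strand), 250 bases before to 50 after the start. Capitals mark an AP-1 site (TGAGTCA, held by 5.20% of 32851 RefSeq promoters) and a GC box (GGGCGG, held by 35.7%). The AP-1 letters begin 131 bases and the GC box letters 4 bases before the start.
Adam19: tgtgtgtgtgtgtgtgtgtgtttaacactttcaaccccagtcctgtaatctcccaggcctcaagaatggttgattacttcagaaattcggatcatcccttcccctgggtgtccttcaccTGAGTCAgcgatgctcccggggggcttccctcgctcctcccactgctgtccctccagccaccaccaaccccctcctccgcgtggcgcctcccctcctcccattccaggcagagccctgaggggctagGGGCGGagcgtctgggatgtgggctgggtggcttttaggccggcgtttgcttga

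Adam10, the sheddase that cuts Notch receptors after ligand binding, was the member with the highest CPM. It measured 228, 267 and 205 CPM in caMNK cells, against 305 and 299 CPM in pBABE cells. Every caMNK library was lower, but caMNK replicate 2 lay well above caMNK replicates 1 and 3, and the difference did not pass (log2 fold change -0.37, SE 0.114, edgeR adjusted p = 0.0834). It did pass without caMNK replicate 2 (log2 fold change -0.48, edgeR adjusted p = 0.000162) and in DESeq2 (adjusted p = 0.0435). Adam17, which frees TNF and several EGF receptor ligands, measured 89.5, 89.2 and 81.2 CPM in caMNK cells, against 105 and 97.3 CPM in pBABE cells. These groups did not overlap either (log2 fold change -0.22, SE 0.0890, edgeR adjusted p = 0.156), and Adam17 shares reads with Iah1 (log2 fold change -0.32, edgeR adjusted p = 0.0820).

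The other 3 tested sheddases overlapped between the groups. Adam15, an integrin-binding ADAM of cell contacts, measured 69.3, 52.9 and 76.6 CPM in caMNK cells and 60.6 and 63.0 CPM in pBABE cells (log2 fold change 0.10, edgeR adjusted p = 0.717). It shares reads with 4731419I09Rik, which had 11651 counts, against 11958 for Adam15, and a log2 fold change of 0.11 (edgeR adjusted p = 0.695). Adam8, best known from immune cells, measured 3.59, 2.63 and 3.24 CPM in caMNK cells and 3.50 and 3.13 CPM in pBABE cells (log2 fold change -0.09, edgeR adjusted p = 0.815). Adam12, or meltrin alpha, known from muscle and fat precursors, ranged between 0.945 and 2.26 CPM in caMNK cells and was 1.51 and 1.24 CPM in pBABE cells (log2 fold change 0.18, edgeR adjusted p = 0.796).

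Adam11, Adam22 and Adam23 lack a working catalytic site and are neural adhesion proteins; Adam22 and Adam23 bind LGI proteins at synapses. On all 5 libraries, with the filter and group as the only term, none of the 3 passed in edgeR, DESeq2 or limma-voom. There, 2 had an unadjusted edgeR p under 0.05. Adam11 passed in edgeR without caMNK replicate 2 (adjusted p = 0.00303) and without the filter (0.0178). Adam23 passed in edgeR without the filter (adjusted p = 0.0318) and with the replicate number as a block (0.0168). Adam11 measured 1.64, 0.781 and 1.51 CPM in caMNK cells, against 0.599 and 0.712 CPM in pBABE cells, with no overlap (log2 fold change 0.97, SE 0.368, edgeR adjusted p = 0.142). Adam23 measured 2.16, 1.81 and 2.78 CPM in caMNK cells, against 3.88 and 2.85 CPM in pBABE cells, also with no overlap (log2 fold change -0.60, SE 0.231, edgeR adjusted p = 0.149). Between the groups, the closest Adam23 libraries, caMNK replicate 3 and pBABE replicate 2, were almost level. Adam22 overlapped, at 1.43, 1.77 and 1.11 CPM in caMNK cells and 1.37 and 1.39 CPM in pBABE cells (log2 fold change 0.07, edgeR adjusted p = 0.893).

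Of the 21 germline and other ADAMs, 3 were tested and 1 rose, Adam1a, a testis ADAM. It had 69, 92 and 50 counts in caMNK libraries and 35 and 24 counts in pBABE libraries. That gave 2.40, 1.89 and 1.35 CPM in caMNK cells, against 0.839 and 0.743 CPM in pBABE cells. There was no overlap, and caMNK replicate 3 was the closest to pBABE. Adam1a rose 2.34-fold (log2 fold change 1.23, SE 0.294, edgeR adjusted p = 0.0406). Its adjusted p was 0.124 without caMNK replicate 1, 0.258 without pBABE replicate 1, 0.244 without pBABE replicate 2 and 0.0624 in limma-voom.

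The reads of Adam1a cannot be assigned to it alone. The counted interval, chromosome 5, bases 121518576 to 121522071 (minus strand), lies inside Tmem116 on the plus strand and almost wholly inside Gm42878 on its own strand. Tmem116 had a log2 fold change of 0.27 (edgeR adjusted p = 0.194) and Gm42878 of -0.02 (edgeR adjusted p = 0.901). Germ cell markers were near 0, with a sum of 0.0270 to 0.247 CPM over 5 genes in caMNK cells and 0.0619 to 0.168 CPM in pBABE cells, and Tnp1 at 0.

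Adam4, another testis ADAM, measured 0.662, 0.308 and 0.594 CPM in caMNK cells, against 0.192 and 0.248 CPM in pBABE cells. The groups did not overlap (log2 fold change 1.20, SE 0.469, edgeR adjusted p = 0.152). Adam4 passed the filter through the caMNK libraries and shares reads with Gm20498 and Cox16, which have many more counts.

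ADAMTS proteases that cut the large proteoglycans versican and aggrecan, called hyalectanases, had 5 tested members, and none passed in edgeR or limma-voom. Adamts9 passed in DESeq2, and 4 had an unadjusted edgeR p under 0.05. Their directions were mixed. Adamts1 and Adamts4 lay higher in every caMNK library, Adamts9 and Adamts5 lower, and Adamts8 overlapped. The summed level of the 7 genes of the group was 174 ± 8.43 CPM in caMNK cells and 161 ± 7.88 CPM in pBABE cells (SD, n = 3 and 2).

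Adamts1, which cuts versican and aggrecan and is needed for ovulation in mice, measured 92.7, 83.1 and 84.1 CPM in caMNK cells, against 67.0 and 74.3 CPM in pBABE cells (log2 fold change 0.29, SE 0.0940, edgeR adjusted p = 0.0897). Adamts5, the main aggrecanase of mouse cartilage, measured 2.13, 2.20 and 1.67 CPM in caMNK cells, against 2.90 and 2.91 CPM in pBABE cells (log2 fold change -0.54, SE 0.188, edgeR adjusted p = 0.115). Neither gene overlapped between the groups. The 2 genes are neighbours on chromosome 16, 53.1 kb apart, and their estimates had opposite signs.

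Adamts4, also called aggrecanase-1, measured 50.4, 38.2 and 52.8 CPM in caMNK cells, against 35.4 and 37.7 CPM in pBABE cells (log2 fold change 0.37, SE 0.141, edgeR adjusted p = 0.145). caMNK replicate 2 lay just above the pBABE libraries. Adamts4 is among the 9 tested members that share reads. Adamts9, a versican-cutting protease, measured 36.8, 41.5 and 32.7 CPM in caMNK cells, against 48.5 and 49.8 CPM in pBABE cells (log2 fold change -0.41, SE 0.112, edgeR adjusted p = 0.0592). In DESeq2 it passed (adjusted p = 0.0289). Without caMNK replicate 2, 4 of the hyalectanases passed in edgeR: Adamts4 (adjusted p = 0.000196), Adamts9 (0.000255), Adamts1 (0.00543) and Adamts5 (0.0278). Adamts9 shares reads with Gm15737, which fell (log2 fold change -0.89, edgeR adjusted p = 0.0121). Adamts8 was 1.01, 1.32 and 1.43 CPM in caMNK cells and 1.13 and 1.39 CPM in pBABE cells (log2 fold change 0.01, edgeR adjusted p = 0.980).

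The procollagen N-propeptidases trim the amino-terminal propeptides of fibrillar collagens. Of the 3, Adamts14 rose, and Adamts2 and Adamts3 did not pass. Adamts14 lies on chromosome 10, bases 61197112 to 61273438 (minus strand). It measured 80.0, 64.6 and 82.2 CPM in caMNK cells, against 54.3 and 55.5 CPM in pBABE cells. All caMNK libraries were higher, and caMNK replicate 2 was the closest to pBABE. Adamts14 rose 1.38-fold (log2 fold change 0.46, SE 0.117, edgeR adjusted p = 0.0483), just past the threshold. The adjusted p was 0.0579 in limma-voom, 0.0516 with the stricter filter and 0.0559 among genes that share no reads. It was 0.178 without caMNK replicate 1, 0.0514 without caMNK replicate 3, 0.349 with pBABE replicate 1 left out and 0.275 with pBABE replicate 2 left out.

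The promoter of Adamts14, chr10:61273370-61273669 (GRCm38.p6, minus strand), is shown as that of a member that rose. Capitals mark 7 GC boxes (GGGCGG or its reverse complement CCGCCC, some of them overlapping). Its GC content was 76.7% with 44 CpG, against medians of 52.7% and 7 CpG over all RefSeq promoters.
Adamts14: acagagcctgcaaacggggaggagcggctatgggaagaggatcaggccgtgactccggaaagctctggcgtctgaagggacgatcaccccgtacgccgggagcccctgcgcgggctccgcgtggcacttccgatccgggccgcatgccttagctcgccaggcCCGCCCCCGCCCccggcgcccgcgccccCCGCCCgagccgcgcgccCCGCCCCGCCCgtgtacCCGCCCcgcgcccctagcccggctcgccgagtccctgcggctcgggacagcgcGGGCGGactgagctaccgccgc

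Adamts2, the main procollagen I N-propeptidase of skin, measured 4.98, 8.22 and 5.92 CPM in caMNK cells, against 8.85 and 8.98 CPM in pBABE cells. The groups did not overlap (log2 fold change -0.47, SE 0.197, edgeR adjusted p = 0.178). Adamts3, which also processes VEGF-C, measured 2.89, 3.84 and 5.27 CPM in caMNK cells and 3.04 and 3.41 CPM in pBABE cells, with overlap (log2 fold change 0.32, edgeR adjusted p = 0.452). Adamts14 and Adamts2 differed in the sign of their estimates.

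Adamts7 and Adamts12 cut cartilage oligomeric matrix protein, and on all 5 libraries neither passed in any of the 3 tools. Adamts12 had an unadjusted edgeR p under 0.05 there. It passed in edgeR without caMNK replicate 2 (log2 fold change -0.75, adjusted p = 0.0119). Adamts7 measured 134, 119 and 134 CPM in caMNK cells and 119.9 and 121 CPM in pBABE cells, with overlap (log2 fold change 0.09, SE 0.0897, edgeR adjusted p = 0.557). It shares reads with Tbc1d2b, which fell (log2 fold change -0.48, edgeR adjusted p = 0.0400). Adamts12 measured 2.06, 2.73 and 1.89 CPM in caMNK cells, against 3.81 and 2.76 CPM in pBABE cells (log2 fold change -0.55, SE 0.226, edgeR adjusted p = 0.167). Its closest libraries, caMNK replicate 2 and pBABE replicate 2, were almost level.

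Adamts10 and Adamts6 are closely related proteases of the fibrillin microfibril, and Adamts10 is mutated in human Weill-Marchesani syndrome. Adamts10 lies on chromosome 17, bases 33524204 to 33553782 (plus strand). It measured 22.5, 17.7 and 22.2 CPM in caMNK cells, against 14.8 and 14.2 CPM in pBABE cells. Every caMNK library was higher than both pBABE libraries, with caMNK replicate 2 the closest. Adamts10 rose 1.43-fold (log2 fold change 0.52, SE 0.130, edgeR adjusted p = 0.0472). Its adjusted p was 0.172 without caMNK replicate 1, 0.0540 without caMNK replicate 3, 0.298 with pBABE replicate 1 left out and 0.302 with pBABE replicate 2 left out. It was 0.0611 in limma-voom and 0.0541 among genes that share no reads. Adamts6 measured 2.37, 4.52 and 3.30 CPM in caMNK cells and 2.78 and 2.20 CPM in pBABE cells, with overlap (log2 fold change 0.46, SE 0.271, edgeR adjusted p = 0.326).

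Among the ADAMTS-like genes, Adamtsl3 fell, the largest fall of the 28 tested members. Adamtsl3, also known as punctin-2, is a secreted matrix protein without a protease domain, and its human counterpart has been linked to body height in association studies. It spans chromosome 7, bases 82335694 to 82614450 (plus strand). It measured 30.9, 44.9 and 29.4 CPM in caMNK cells, against 82.0 and 80.0 CPM in pBABE cells. All caMNK libraries lay far below both pBABE libraries, and caMNK replicate 2 was again the closest. Adamtsl3 fell 2.30-fold (log2 fold change -1.20, SE 0.168, edgeR adjusted p = 0.00811). Its log2 fold change was -1.43 without caMNK replicate 2 and -1.09 without caMNK replicate 3. The adjusted p was 0.107 with pBABE replicate 1 left out, 0.0659 with pBABE replicate 2 left out, and it stayed under 0.05 when any single caMNK library was left out.

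The promoter of Adamtsl3, chr7:82335444-82335743 (GRCm38.p6, plus strand), is shown because this gene had the largest fall. Capitals mark 5 GC boxes on either strand. The GC content was 78.7% with 46 CpG. Besides the GC box and AP-1 site, 5 motifs were searched on both strands: the cyclic AMP response element TGACGTCA (in 1.79% of all promoters), the amino acid response element core TGATGCAA (0.895%), the E-box CACGTG (7.15%), the TATA box TATAAA (13.6%) and the EGR site GCGTGGGCG (0.612%). These 5 were not among the letters of the 3 promoters printed. The promoter of Adam1a held none of the 7 motifs, with a GC content of 39.7% and 4 CpG. Its start site lies 376 bases from the upstream end of the counted interval. RefSeq promoters were matched for 31 of the 57 members, 17 of the 28 tested and 4 of the 6 that passed.
Adamtsl3: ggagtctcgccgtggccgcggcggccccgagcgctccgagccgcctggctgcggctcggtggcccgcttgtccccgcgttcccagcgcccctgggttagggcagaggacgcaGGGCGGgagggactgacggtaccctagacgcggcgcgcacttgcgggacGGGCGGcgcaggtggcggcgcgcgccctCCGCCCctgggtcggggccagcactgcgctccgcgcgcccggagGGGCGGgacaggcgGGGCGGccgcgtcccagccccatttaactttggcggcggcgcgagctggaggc

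Adamtsl4, a fibrillin-binding protein mutated in human lens dislocation, measured 11.4, 7.94 and 11.1 CPM in caMNK cells, against 14.0 and 11.7 CPM in pBABE cells. The groups did not overlap, but the margin was narrow (log2 fold change -0.36, SE 0.172, edgeR adjusted p = 0.232). Adamtsl5, which also binds fibrillin microfibrils, measured 2.65, 2.24 and 3.54 CPM in caMNK cells and 2.18 and 2.60 CPM in pBABE cells, with overlap (log2 fold change 0.23, edgeR adjusted p = 0.577). The 5 genes of the class summed to 48.1 ± 6.22 CPM in caMNK cells and 96.3 ± 2.77 CPM in pBABE cells (SD, n = 3 and 2), most of which was Adamtsl3 in both groups.

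**Figure D4:**
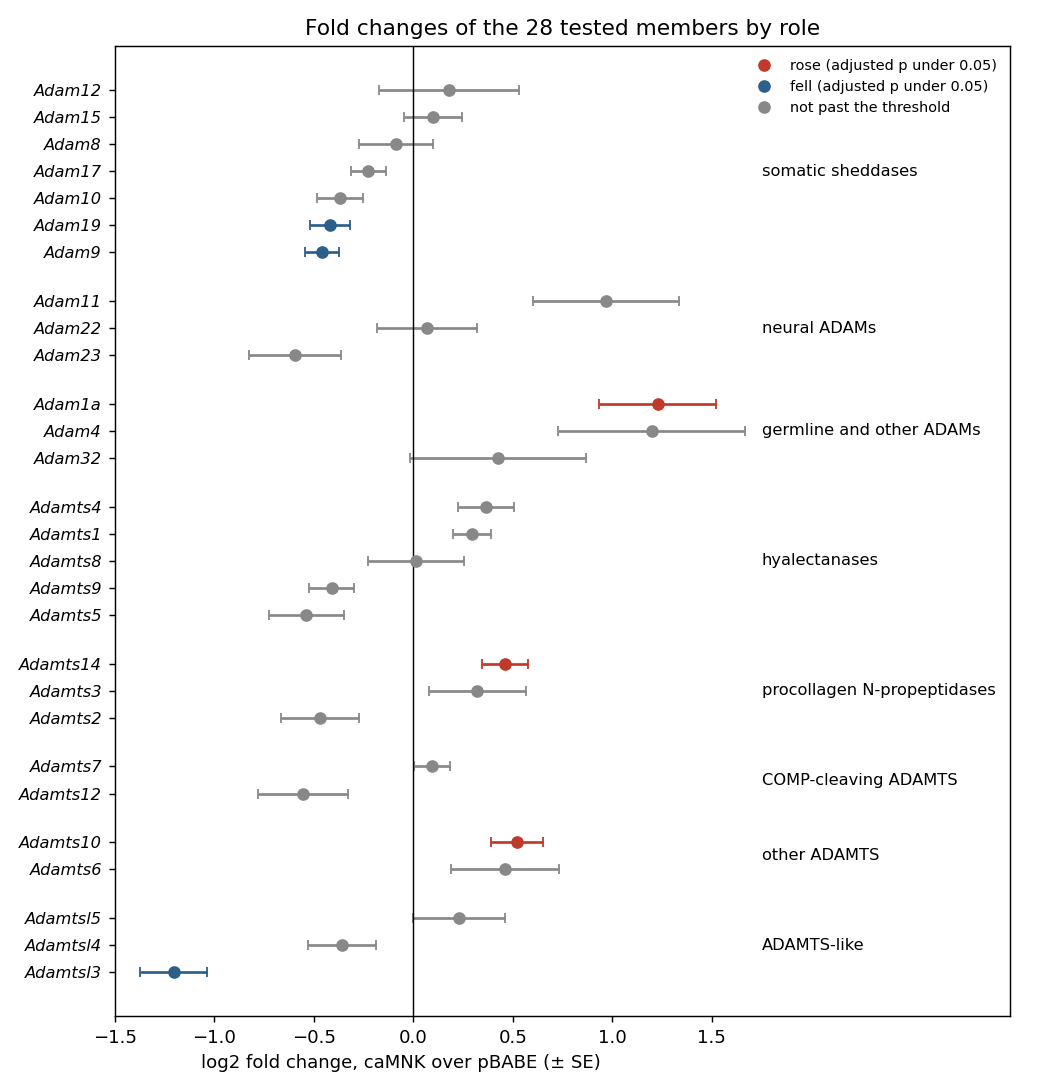
Log2 fold change of caMNK over pBABE with ± 1 SE for the 28 tested members, grouped by what the proteins do, in red where the gene rose, blue where it fell and grey where it did not pass. Each of the classes with 3 or more tested members, apart from the germline and other ADAMs, has estimates on both sides of 0; Adamtsl3 at -1.20 and Adam1a at 1.23 are the outermost.

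Fold changes of the members were also set against gene length. Over the 28 tested members, the Spearman correlation of log2 fold change with deposited length was -0.44, and over all 17026 genes tested it was -0.10. It was -0.42 over the 26 members without Adam4 and Adam32. These are descriptions: the points share libraries, and the deposited lengths include introns. The 4 members under 10 kb had a median log2 fold change of 0.75, against 0.03 over all genes of that length, but without Adam4 the median of the other 3 was 0.29. The 7 members of 10 to 30 kb had a median of 0.10 (0.02 over all genes), the 6 of 30 to 100 kb a median of -0.32 (-0.05), and the 11 of 100 kb or more a median of -0.37 (-0.06), or -0.39 without Adam32. Adam4 and Adam1a, the shortest tested members, share reads with other genes. Adamtsl3, Adam9 and Adam19 span more than 60 kb each, and so does Adamts14, which rose.

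**Figure D5:**
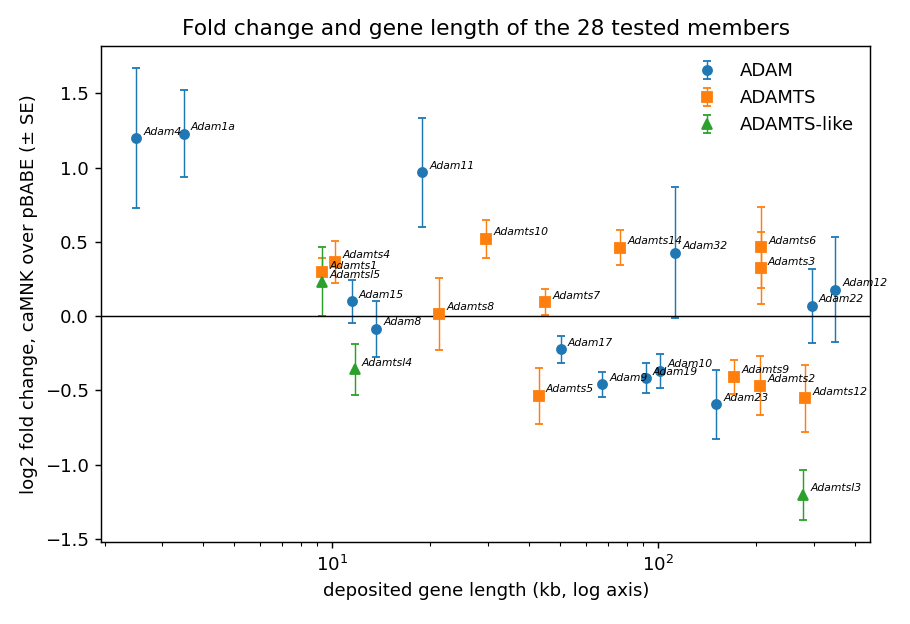
Log2 fold change of caMNK over pBABE with ± 1 SE against deposited gene length in kb on a log axis for the 28 tested members, by family. Adam4 and Adam1a stand at the short end with estimates above 1, while the genes between 40 and 110 kb lie on both sides of 0, with Adam9, Adam19, Adam10, Adam17 and Adamts5 below it and Adamts14 and Adamts7 above.

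The caMNK libraries did not stand equally far from pBABE. For the 18 members whose groups did not overlap, caMNK replicate 2 was the library nearest to pBABE in 14, replicate 1 in 2 (Adamtsl4 and Adam17) and replicate 3 in 2 (Adam23 and Adam1a). The farthest library was caMNK replicate 3 in 10 members, replicate 1 in 6 and replicate 2 in 2. Among those lower in caMNK cells, Adam9, Adam10, Adam19, Adamts9, Adamtsl3, Adamts12 and Adamts5 had the same order. In these genes replicate 3 was lowest, replicate 1 between and replicate 2 highest.

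Genes that act on or with these proteases were read from lists of 92 genes, of which 74 were tested. Among them 9 rose (12.2%) and 4 fell (5.41%), with a median log2 fold change of 0.04. Over all genes tested, 4.42% rose and 3.52% fell. Without caMNK replicate 1 or caMNK replicate 2, 73 of the list genes were tested, and 1.51% and 29.6% of all genes passed. The counts depended on the libraries in the same way as those of the members: 3 rose with 1 falling when caMNK replicate 1 was left out. When caMNK replicate 2 was left out, 19 rose with 17 falling. The calls did not hold with either pBABE library left out.

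Of the 9 tested regulators of ADAM10 and ADAM17 (iRhoms, the FERM protein Frmd8, tetraspanins and others), none passed in edgeR or limma-voom. Pacs2, a sorting protein for ADAM17 that is named after its values were seen, passed in DESeq2 and was the 1 gene with an unadjusted edgeR p under 0.05 (log2 fold change -0.35, edgeR adjusted p = 0.0502). Frmd8, the most abundant in CPM, was 81.7 CPM in caMNK cells and 85.8 CPM in pBABE cells (log2 fold change -0.07, edgeR adjusted p = 0.754). The 3 tested convertases that remove the inhibitory prodomain passed in none of the 3 tools, and none had an unadjusted edgeR p under 0.05. Furin was 161 CPM in caMNK cells and 157 CPM in pBABE cells (log2 fold change 0.04, edgeR adjusted p = 0.855). Pofut2, which adds the fucose that ADAMTS proteins need for secretion, was 82.5 CPM in caMNK cells and 77.1 CPM in pBABE cells (log2 fold change 0.10, edgeR adjusted p = 0.623). It and B3glct, which extends that sugar, also passed in none of the tools, and neither had an unadjusted edgeR p under 0.05.

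Of 7 tested inhibitors and clearance receptors, 2 rose. Timp3, the matrix-bound inhibitor of ADAM17, ADAM10 and several ADAMTS proteases, measured 84.6, 102 and 77.8 CPM in caMNK cells, against 51.5 and 50.6 CPM in pBABE cells (log2 fold change 0.79, SE 0.121, edgeR adjusted p = 0.0103). Timp1, which inhibits matrix metalloproteinases and ADAM10, was 212 ± 14.6 CPM in caMNK cells and 163 ± 0.853 CPM in pBABE cells (SD, n = 3 and 2; log2 fold change 0.38, edgeR adjusted p = 0.0406). The groups did not overlap for either. Timp3 lies within Syn3 and Timp1 within Syn1, and the counts of those genes are close to those of the inhibitors. Lrp1, the endocytic receptor that clears ADAMTS proteases, was 873 CPM in caMNK cells and 1055 CPM in pBABE cells (log2 fold change -0.27, edgeR adjusted p = 0.219).

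Among substrates of the sheddases, 3 of 7 tested EGF receptor ligands rose. Areg (amphiregulin) measured 147, 125 and 170 CPM in caMNK cells, against 64.5 and 77.8 CPM in pBABE cells (log2 fold change 1.05, SE 0.145, edgeR adjusted p = 0.00811). Ereg (epiregulin) was 144 ± 6.71 CPM in caMNK cells and 89.8 ± 14.5 CPM in pBABE cells (log2 fold change 0.69, edgeR adjusted p = 0.0123), and Btc (betacellulin) was 46.2 ± 2.39 CPM in caMNK cells and 27.9 ± 2.33 CPM in pBABE cells (log2 fold change 0.73, edgeR adjusted p = 0.00787). All 3 ligands were higher in every caMNK library. Of the 7 tested, 5 had estimates above 0 and 2 below, Tgfa and Egf, which are named after their values were seen. Tgfa was lower in every caMNK library without passing (log2 fold change -0.68, edgeR adjusted p = 0.111). Of 8 tested Notch receptors and ligands, Jag1 rose (49.1 ± 7.49 CPM in caMNK cells, 31.3 ± 4.11 CPM in pBABE cells; log2 fold change 0.65, edgeR adjusted p = 0.0339), and Notch2, the most abundant in CPM, did not pass (64.9 CPM in caMNK cells, 76.7 CPM in pBABE cells; log2 fold change -0.24, edgeR adjusted p = 0.167). Of 23 other shed surface proteins tested, the chemokine Cx3cl1 rose (log2 fold change 0.57, edgeR adjusted p = 0.0134) and the ephrin receptor Ephb2 fell (log2 fold change -0.77, edgeR adjusted p = 0.0193). The receptor kinase Axl, the most abundant of these in CPM, was 1014 CPM in caMNK cells and 1188 CPM in pBABE cells (log2 fold change -0.23, edgeR adjusted p = 0.110).

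Of 15 tested substrates and matrix partners of the ADAMTS proteins, 2 rose and 3 fell. Vcan, which encodes versican, fell to 15.3 ± 4.10 CPM in caMNK cells, against 26.7 ± 0.858 CPM in pBABE cells (log2 fold change -0.80, edgeR adjusted p = 0.0456), and it shares reads with Gm4117. The 2 chains of type I procollagen moved in opposite directions. Col1a1 measured 83.5, 113 and 82.5 CPM in caMNK cells, against 164 and 152 CPM in pBABE cells (log2 fold change -0.76, SE 0.139, edgeR adjusted p = 0.0164). Col1a2 measured 245, 305 and 233 CPM in caMNK cells, against 169.8 and 121 CPM in pBABE cells (log2 fold change 0.84, SE 0.167, edgeR adjusted p = 0.0218). Neither pair of groups overlapped. Ltbp2, a microfibril-associated protein, fell (45.3 ± 0.762 CPM in caMNK cells, 69.4 ± 0.605 CPM in pBABE cells; log2 fold change -0.61, edgeR adjusted p = 0.00653). Thbs1, which encodes thrombospondin-1, rose (395 ± 28.8 CPM in caMNK cells, 266 ± 39.1 CPM in pBABE cells; log2 fold change 0.57, edgeR adjusted p = 0.0224). Fn1 (fibronectin), the most abundant of the list in CPM, was 1531 CPM in caMNK cells and 1434 CPM in pBABE cells (log2 fold change 0.09, edgeR adjusted p = 0.620).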

How the data were processed

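RNA of 3 caMNK and 2 pBABE libraries was extracted with a Qiagen RNeasy Plus kit and made into TruSeq Stranded Total RNA libraries, per the labels' protocols. The deposited values are raw read counts per gene, 1 table per library. The submitters' processing notes name featureCounts 1.5.3, STAR 2.5.3, Trimmomatic 0.32, SAMtools 0.1.19, FastQC 0.11.2 and DESeq2, with build mm10. The annotation release and how overlaps were counted are not given in the sources read. Of 53 multi-exon members, 38 had a deposited length equal to the gene's genomic span in GENCODE M21 and 0 equal to the summed exons, so the counts take in introns. Genes share reads where an overlapping gene had 10% or more of their own counts. The values of 1 such overlapping gene are not reported here.

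Counts of all 5 libraries were fitted in edgeR 4.0.16 (R 4.3.3) with group as the only term, after filterByExpr by group (minimum count 10) and TMM scaling, and tested by robust quasi-likelihood F tests. P-values were Benjamini-Hochberg adjusted over 17026 genes, threshold 0.05. The SE was taken as the absolute log2 fold change over the root of F. CPM is from the TMM-scaled totals. The test was also run on simulated counts, and the outcome is not reported here. Alternatives were DESeq2 1.42.0, limma 3.58.1 (voom), other scalings and filters, a replicate block, each library left out, and genes that share reads left out. The stricter filter asks for a mean of 1 CPM. Groups do not overlap where all caMNK values are above, or all below, the pBABE values. All library pairs differed by more than sampling noise.

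The members and lists were chosen with earlier results of these data known. Named are all members past the threshold, the 12 most abundant others, the remaining tested members in brief, untested members with 10 or more counts, and of each list the genes past the threshold and the most abundant one. Promoter sequences are RefSeq's for GRCm38.p6.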

Additional observations from a re-analysis of the deposited data

How the results depend on the processing

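The 6 called members kept their direction in every fit tried; where groups do not overlap, leaving out a library cannot turn it, so this is no sign of stability. Without a filter on low counts, 45 members were tested, and 5 rose and 7 fell, against 1591 and 1330 of 27978 genes. Of 28 members, 5 fell in DESeq2, against 763 of 17026 genes. In limma-voom 0 of 28 members rose (6 higher at an unadjusted p under 0.05), against 659 of 17026 genes. Leaving out genes that share reads kept 19 members. Of these, 0 rose in edgeR (4 higher at an unadjusted p under 0.05) and 2 fell, against 410 and 305 of 10605 genes. In the partner lists, no filter gave 13 that fell of 74 and DESeq2 gave 8 of 74. With single libraries left out, 0 to 8 members rose and 0 to 9 fell, 11 to 2325 of all genes rose and 12 to 2617 fell, and 0 to 19 genes of the lists rose and 0 to 17 fell. With the replicate number as a block in edgeR, 7 of 28 members fell, and 1477 of 17026 genes rose and 1231 fell. Of the lists, 14 genes rose and 9 fell in that fit. Same-numbered libraries did not deviate together (r = -0.127 and -0.0217). With 2 pBABE libraries, their deviations from the group mean mirror each other, so these values cannot decide whether the numbers pair the libraries. Members near 0 changed sign in some fits, without passing in those: Adam15 to a log2 fold change of -0.029 and Adamts8 to -0.12 in the block fit, and 5 members with single libraries left out, where Adam15 ranged from -0.017 to 0.24 (past the threshold at 0.24, without caMNK replicate 2), Adam22 from -0.14 to 0.23, Adam12 from -0.27 to 0.44, Adam8 from -0.18 to 0.032 and Adamts8 from -0.15 to 0.16. The causes were not tested. Members under about 0.275 CPM could not be compared at this depth.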
